A study of Mus musculus with 6 samples.

Results

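The 39 genes of the interferon response and double-stranded RNA sensing were compared between untreated and tamoxifen-treated mouse embryonic stem cells. The treatment was meant to delete Dicer, the ribonuclease that cuts double-stranded precursors into microRNAs. The genes were chosen by name as 9 RNA sensors and RNA-acting enzymes, 13 signalling factors and 17 interferon-induced genes. No rule on the measured values was used, but earlier results of these data were known when the genes were chosen. Of the 39 genes, 37 had an array probe set listed under their symbol alone and were measured, among 19938 genes in all; Isg15 and Ifi44 were not analysed here. Irf1 had a further probe set, and the brighter was used.

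The cells carried Dicer Fx/Fx, that is, Dicer alleles flanked by recombination sites, and all 6 arrays were of these cells. The untreated group held 3 arrays of cells without deletion. The tamoxifen group held 3 arrays of cells given tamoxifen for 3 days and collected 2 days later, on day 5. No collection day was given for the untreated cells, the sources used here do not name the recombinase or the number of clones, and arrays of E14 wild-type cells were not analysed here, so tamoxifen, days in culture and Dicer loss cannot be told apart. The comparison asks which transcripts differ between the tamoxifen and the untreated cells.

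Cells recognise long double-stranded RNA as a sign of infection. The helicases RIG-I (Ddx58) and MDA5 (Ifih1) signal through the mitochondrial adaptor MAVS and the kinase TBK1 to IRF3 and IRF7, which switch on type I interferon genes. Secreted interferon binds the receptor IFNAR1/IFNAR2, the kinases JAK1 and TYK2 phosphorylate STAT proteins, and STAT2 and IRF9 are subunits of the factor ISGF3, which binds the interferon-stimulated response element (ISRE) in front of antiviral genes. Embryonic stem cells are known for a weak interferon response, and Dicer shares its substrate, double-stranded RNA, with these sensors.

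The ISRE was looked for first, since it is the shared sequence of the induced genes. It was searched as GAAANNGAAA, on both strands, in RefSeq windows of GRCm38.p6 that run from 250 bases before to 50 bases after each gene's start. Windows were found for 32 of the 39 genes, and 13 of these (40.6%) held a match, against 1079 of 27025 genes (3.99%) of the whole table. By role, matches were found for 5 of 7 sensors and enzymes, 1 of 12 signalling factors and 7 of 13 induced genes. Overlapping matches were counted separately. A match describes the letters only and is not a measured binding site.

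The sequences below, 5′ to 3′ on the gene's strand with the matches in capitals, set the quiet antiviral genes Ifit1, Ifit3, Rsad2 and Cxcl10 beside 3 genes that changed after tamoxifen: Ifitm3, Oas3 and Stat2. Samd9l is added because it changed most and held only the form with 3 bases between the GAAA runs.
Ifit1 promoter, chr19:34640765-34640833, plus strand: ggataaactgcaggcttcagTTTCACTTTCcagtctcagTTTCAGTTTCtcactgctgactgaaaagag
Ifit3 promoter, chr19:34583353-34583436, plus strand: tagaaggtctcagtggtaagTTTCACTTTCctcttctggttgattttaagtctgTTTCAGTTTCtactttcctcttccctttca
Rsad2 promoter, chr12:26456543-26456592, minus strand: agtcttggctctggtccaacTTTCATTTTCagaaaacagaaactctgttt
Cxcl10 promoter, chr5:92349073-92349122, minus strand: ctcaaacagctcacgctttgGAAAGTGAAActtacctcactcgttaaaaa
Ifitm3 promoter, chr7:141010715-141010744, minus strand: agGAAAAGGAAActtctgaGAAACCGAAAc
Oas3 promoter, chr5:120777705-120777754, minus strand: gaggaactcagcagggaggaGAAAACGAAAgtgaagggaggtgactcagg
Stat2 promoter, chr10:128270256-128270305, plus strand: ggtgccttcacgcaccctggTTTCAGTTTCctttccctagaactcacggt
Samd9l promoter, chr6:3399522-3399551, minus strand: gtatcagaatcGAAACTGGAAActgaagca
The Ifit1 stretch holds 2 separate matches, the first at -104 and the second at -85 bases from the gene's start. The matches of Ifitm3 begin 2 and 19 bases past the start, that of Oas3 at -75 and that of Stat2 at -222. The 3-base form of Samd9l begins 31 bases past the start.

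The arrays were close to each other. Arrays of the same group correlated across genes at 0.996 to 0.998, and arrays of different groups at 0.993 to 0.996. Dicer1 itself was at 11.43, 11.36 and 11.48 in the untreated arrays and at 9.53, 9.48 and 9.69 after tamoxifen (log2 intensity), as the labels require. Of 12 stem cell markers 0 were called by limma, with summed signals (linear array units) of 82810 to 87050 in untreated and 79826 to 83961 in tamoxifen arrays; before adjustment 2 were higher and 3 lower under 0.05 (41.7%, against 24.5% of all genes). With the replicate number as a block, a fit that pairs same-numbered arrays, Utf1 (-0.26, limma adjusted p = 0.0193) and Tdgf1 (-0.24, 0.0326) were called lower. Of 11 fibroblast, 11 blood and immune, 10 primitive endoderm and 7 neural markers 0 were called by limma without the block, with 1, 2, 4 and 3 under 0.05 before adjustment (9.09%, 18.2%, 40% and 42.9%). With the block 1, 1, 4 and 2 were called, or 9.09%, 9.09%, 40% and 28.6%, where 17.4% of all genes were. Of the 4 primitive endoderm markers, Pdgfra (0.36) and Sparc (0.34) were higher, and Sox7 (-0.28) and Lama1 (-0.26) lower. The summed signals of that list overlapped, at 6571 to 7915 in untreated and 7620 to 8718 in tamoxifen arrays. Of 9 mesoderm and endothelial markers, Tek (0.88 ± 0.15) and Kdr (0.26 ± 0.07) rose, or 22.2%, against 7.78% of all genes. Kdr was not called when any 1 array was left out (limma adjusted p from 0.0647 to 0.172). Eomes (-0.57 ± 0.23) was lower in all 3 replicate pairs. With all arrays its limma adjusted p was 0.174, or 0.00745 with the block. Without the block, Eomes passed in 1 of the fits that left out 1 array (0.0122). The summed signals of the mesoderm and endothelial list were 2823 to 2994 in untreated and 3011 to 3515 in tamoxifen arrays. These sums include Tek, at 8.50, 8.95 and 9.12 and then at 9.56, 9.76 and 9.88 (log2 intensity). Without the block, 7 of the 9 markers were not called, so the sums do not show a rise of the whole list. The neural sums were 1541 to 1668 and 1691 to 1880. The part of these markers in the values below was not tested.

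Of the 37 measured genes, 4 rose and 2 fell after tamoxifen (limma, adjusted p under 0.05), and 31 were not called. The 6 called genes make 16.2% of the 37, where 7.78% of all genes tested were called, 3.79% higher and 3.99% lower. The list was chosen with earlier results of these data known. Samd9l, Oas2, Irf9 and Ifitm3 rose, and Oas3 and Stat2 fell. Within the OAS family, Oas2 rose while Oas3 fell, and within ISGF3, Irf9 rose while Stat2 fell. The median change of the 37 was 0.04 on the log2 scale, against 0.01 for all genes. The 3 tamoxifen arrays lay wholly above the untreated ones for 8 of the genes and wholly below for 3, together 29.7%, near the 29.3% of all genes.

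**Figure D1:**
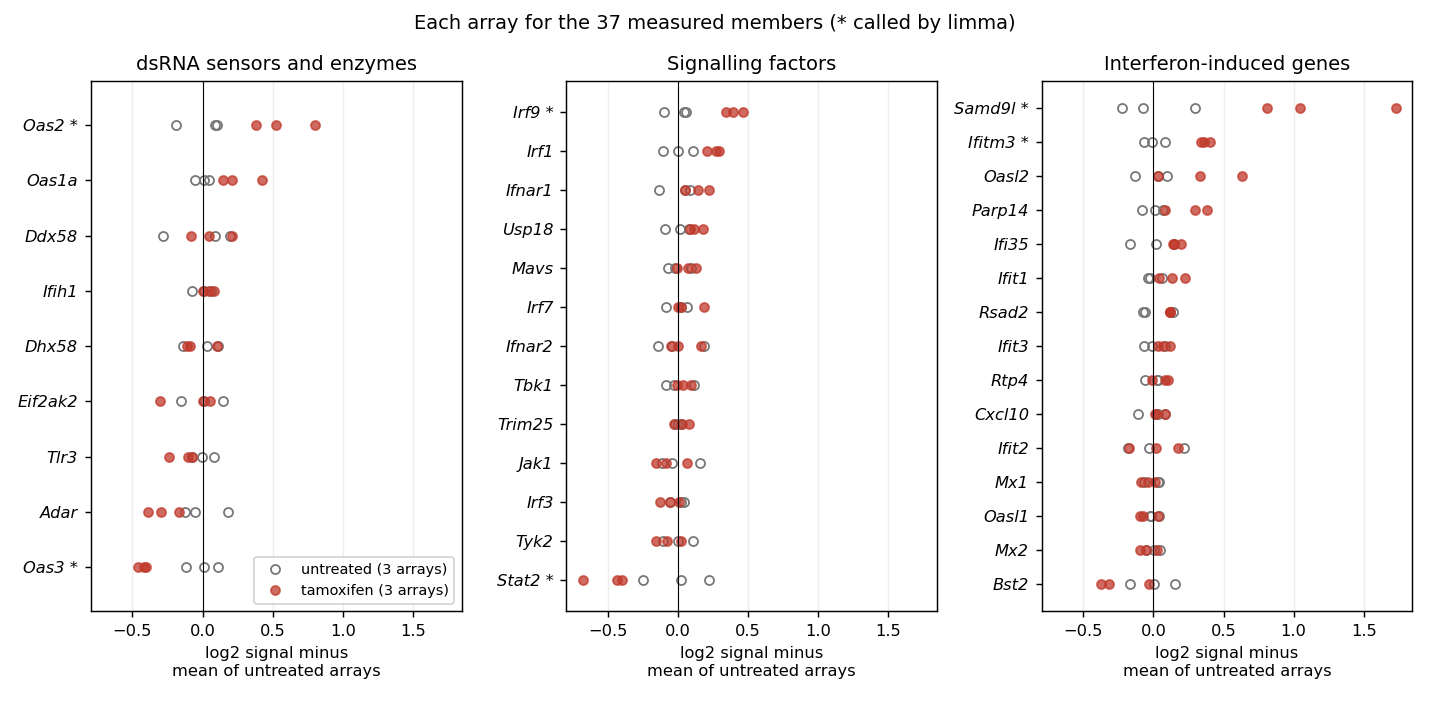
Each point is 1 array: its log2 signal minus the mean of the 3 untreated arrays (x axis), for the 37 measured genes (y axis) in 3 panels by role, open for untreated and filled for tamoxifen. Samd9l lies farthest to the right, Oas3 and Stat2 lie to the left, and most other genes overlap between the groups.

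These calls depended on single arrays and on the probe sets tested. Without tamoxifen replicate 2, only Samd9l was still called, where 1.78% of all genes were, and in a fit to all 35556 probe sets, named or not, none of the 6 was (limma adjusted p from 0.0554 to 0.128; 1.37% of genes were called there). Before adjustment 10 members had p under 0.05 in that fit and 11 in the fit by gene (29.7%, against 24.5% of all genes). With the replicate number as a block, all 6 stayed called and 12 members passed, 8 higher and 4 lower, where 17.4% of all genes were called.

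RNA sensors and RNA-acting enzymes came first in the pathway. Of 9 measured, 1 rose, 1 fell and 7 were not called (22.2% called, against 7.78% of all genes). The oligoadenylate synthetases make the messenger that activates RNase L when they bind double-stranded RNA. Oas2 was at 7.21, 7.22 and 6.93 in untreated and at 7.64, 7.92 and 7.50 in tamoxifen arrays (log2 intensity). Every tamoxifen array exceeded every untreated one, a rise of 0.57 ± 0.12 (log2, SE, n = 3 per group), or 1.48-fold (limma adjusted p = 0.0255). Oas3, the large synthetase that responds to long double-stranded RNA, was at 7.51, 7.41 and 7.28 and then at 6.98, 6.94 and 7.00. Here every tamoxifen array was below every untreated one, a fall of 1.35-fold (-0.43 ± 0.07, limma adjusted p = 0.0128). Both genes lie in 1 cluster on chromosome 5, and their changes had opposite signs in all 3 replicate pairs (0.43, 0.70 and 0.57 for Oas2; -0.53, -0.47 and -0.28 for Oas3).

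Oas2 was not called without untreated replicate 2 (0.0615), untreated replicate 3 (0.0662) or tamoxifen replicate 2 (0.079), and Oas3 not without untreated replicate 2 (0.0521) or tamoxifen replicate 2 (0.0608). Oas1a, a further synthetase with close copies in the same cluster that probes may share, was at 7.39, 7.49 and 7.45 in untreated and 7.65, 7.87 and 7.59 in tamoxifen arrays. The groups did not overlap, but the change of 0.26 ± 0.08 was past the threshold only with the replicate block (limma adjusted p = 0.0906, or 0.0285 with the block). For Oas2 and Oas1a the highest value was in tamoxifen replicate 2.

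Adar, which edits adenosine to inosine in double-stranded RNA and so keeps cellular RNA from the sensors, was at 9.59, 9.66 and 9.90 in untreated and 9.42, 9.33 and 9.55 in tamoxifen arrays. All tamoxifen values were below all untreated ones. The change of -0.28 ± 0.09 was not called (limma adjusted p = 0.106), though it passed with the replicate block (0.0185). Tlr3, the endosomal receptor for double-stranded RNA, was dim, at 5.49, 5.58 and 5.42 and then 5.26, 5.42 and 5.39. Its groups touched, with a change of -0.14 ± 0.07 (limma adjusted p = 0.264).

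The cytosolic helicases and the kinase PKR showed no called change. Ddx58 (RIG-I) was at 10.54, 11.02 and 10.91 in untreated and 10.74, 11.03 and 10.87 in tamoxifen arrays, with a change of 0.06 and a 95% interval from -0.23 to 0.34. Ifih1 (MDA5) was dim, at 5.54, 5.59 and 5.45 and then 5.53, 5.61 and 5.57, with an interval from -0.10 to 0.19. Eif2ak2, which encodes the translation-blocking kinase PKR, was at 8.76, 8.59 and 8.89 and then 8.80, 8.44 and 8.75, with an interval from -0.33 to 0.16. The groups overlapped for all 3. Dhx58, which encodes LGP2, a regulator of RIG-I and MDA5, had a change of -0.04 ± 0.09. For these 4 the intervals of the fit without the block reached from 0.793-fold to 1.27-fold, so that fit cannot tell smaller changes from none. With the block the SE of Ddx58 was 0.07 in place of 0.13, and the limma adjusted p of the 4 began at 0.404.

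Among 13 signalling factors, 1 rose, 1 fell and 11 were not called (15.4% called, against 7.78% of all genes). Irf9, the DNA-binding subunit of ISGF3, was at 9.18, 9.20 and 9.04 in untreated and 9.48, 9.53 and 9.60 in tamoxifen arrays. The groups were apart, with a rise of 0.40 ± 0.07, or 1.32-fold (limma adjusted p = 0.0135). Stat2, its STAT partner, was at 9.80, 9.33 and 9.60 and then 9.18, 8.90 and 9.14. All tamoxifen values were lower, a fall of 1.42-fold (-0.50 ± 0.12, limma adjusted p = 0.0422). The 2 subunits thus changed in opposite directions in every replicate pair, at 0.30, 0.33 and 0.56 for Irf9 and -0.62, -0.43 and -0.46 for Stat2.

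In the fits without the block, the fall of Stat2 was the least firm of the 6 calls. It was called in 2 of 6 fits that left out 1 array, being lost without untreated replicate 1 (0.0787), untreated replicate 3 (0.098), tamoxifen replicate 2 (0.15) and tamoxifen replicate 3 (0.0981). It was also not called after cyclic loess (0.0518) or renewed quantile normalisation (0.0504). With the block the order differed: the limma adjusted p of Stat2 was 0.00193, and the largest of the 6 was that of Irf9 (0.00701). Without the block, Irf9 was lost when tamoxifen replicate 2 (0.0596) or tamoxifen replicate 3 (0.0572) was left out.

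**Figure D2:**
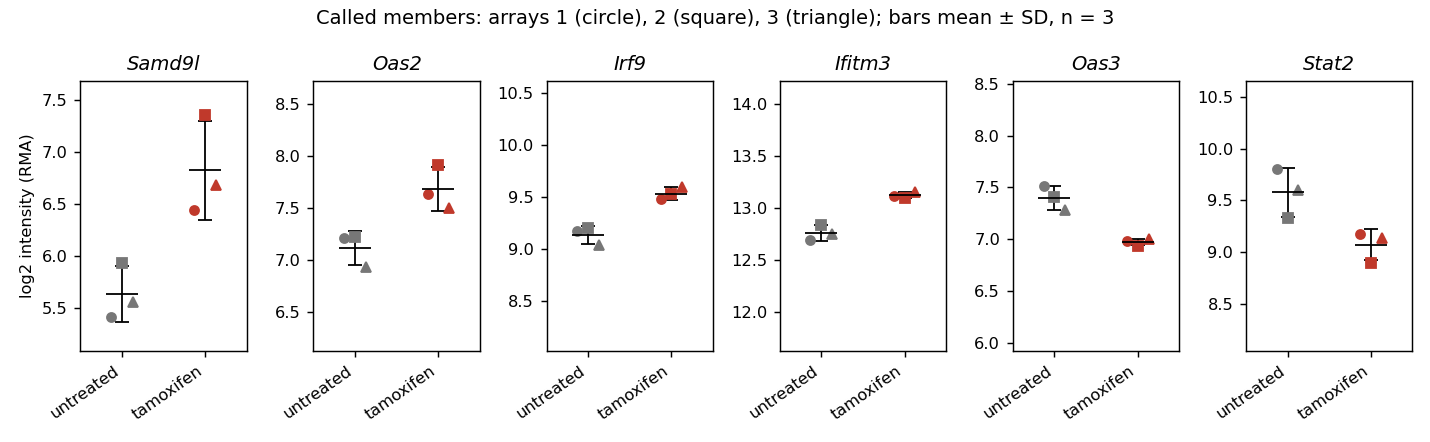
The y axes give log2 intensity (RMA) in 6 panels of equal height for the called genes, with untreated and tamoxifen arrays on the x axis; symbols mark the replicate number, and bars the mean ± SD (n = 3). In every panel the 3 tamoxifen points are on 1 side of the 3 untreated points, above for Samd9l, Oas2, Irf9 and Ifitm3 and below for Oas3 and Stat2.

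Irf1, an early activator of interferon-responsive genes, was at 9.42, 9.31 and 9.53 in untreated and 9.63, 9.69 and 9.71 in tamoxifen arrays. The groups did not overlap, and the change of 0.26 ± 0.07 had a limma adjusted p of 0.0644, which passed with the block (0.0283) and after cyclic loess (0.0441). Its other probe set disagreed, at 6.94 ± 0.03 and 6.93 ± 0.05 (SD, n = 3), a change of -0.01. Usp18, which removes ISG15 from proteins and damps the receptor, was at 6.27, 6.33 and 6.16 and then 6.43, 6.37 and 6.34. These groups were apart by little, with a change of 0.13 ± 0.07 (limma adjusted p = 0.288).

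The steps that carry the signal from the sensors and into the cell from the receptor were not called. Mavs, the adaptor on which RIG-I and MDA5 converge, was at 10.39, 10.28 and 10.23 in untreated and 10.43, 10.37 and 10.29 in tamoxifen arrays. The groups overlapped, and the change of 0.07 had a 95% interval from -0.09 to 0.22. The receptor chain Ifnar1 was at 9.49, 9.68 and 9.71 and then 9.68, 9.85 and 9.77, with a change of 0.14 and an interval from -0.04 to 0.32. Ifnar2, the other chain, was at 10.28, 10.05 and 9.95 and then 10.26, 10.04 and 10.09, with an interval from -0.18 to 0.26. Neither chain had groups that were apart.

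Tbk1, the kinase Jak1, its partner Tyk2, the interferon regulators Irf3 and Irf7, and Trim25, an E3 ligase that acts on RIG-I, had changes from -0.07 to 0.07. Over these 6 with Mavs and the receptor chains, 95% intervals lay between 0.838-fold and 1.25-fold.

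Interferon-induced genes split into 2 that rose, Samd9l and Ifitm3, and 13 that were not called, out of 15 measured. The called share was 13.3%, against 7.78% of all genes. Samd9l, which encodes an antiviral protein that restrains growth and translation, was at 5.41, 5.93 and 5.56 in untreated and 6.44, 7.36 and 6.68 in tamoxifen arrays. The lowest tamoxifen value was above the highest untreated one, a rise of 2.29-fold (1.20 ± 0.22, limma adjusted p = 0.0164), the largest of the 37. It was highest in tamoxifen replicate 2, and its pair differences were 1.03, 1.44 and 1.12. Leaving out untreated replicate 3 ended the call (0.0513), and removing the dimmest 40% of genes took Samd9l out of the test. Its untreated signal was at percentile 18.5 of all genes, and RMA compresses changes of such dim probe sets.

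Ifitm3, a membrane protein that blocks the fusion of viruses with endosomes, was at 12.69, 12.84 and 12.75 in untreated and 13.12, 13.10 and 13.16 in tamoxifen arrays. The groups were clearly apart, with a rise of 0.37 ± 0.06, or 1.29-fold (limma adjusted p = 0.0135). It was lost without tamoxifen replicate 2 (0.0567) and without tamoxifen replicate 3 (0.0582). Ifitm3 is known to be expressed in stem cells without interferon, and its signal was at percentile 98.9. Of its neighbours on the chromosome, which are similar in sequence, Ifitm2 had a change of 0.03 ± 0.07 and Ifitm1 of 0.25 ± 0.07 (limma adjusted p = 0.812 and 0.0779); both were named outside the rule. Ifitm1 passed with the block (0.0207). In these bulk samples, more cells of a kind and more RNA per cell cannot be told apart.

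Parp14, an ADP-ribosyltransferase, was at 7.15, 7.21 and 7.06 in untreated and 7.44, 7.52 and 7.22 in tamoxifen arrays. The groups just separated, with a change of 0.25 ± 0.09 (limma adjusted p = 0.116, or 0.0244 with the block). Oasl2, an OAS-like protein with a ubiquitin-like end, was at 7.72, 7.88 and 7.95 and then 7.88, 8.48 and 8.18. Tamoxifen replicate 2 stood highest and replicate 1 lay among the untreated values, with a change of 0.33 ± 0.14 (limma adjusted p = 0.181). It passed without tamoxifen replicate 1 (0.0356) and with the block (0.0365). Bst2, the tetherin that holds budding virus at the cell surface, was at 10.27, 10.12 and 9.95 and then 10.08, 9.80 and 9.74. The groups overlapped, and the change of -0.24 ± 0.11 had a limma adjusted p of 0.221, or 0.0275 with the block.

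Of the 9 measured induced genes in the dimmest 40% of all genes, Samd9l rose and 8 were not called. These 8 were Ifit1, Ifit2 and Ifit3, whose proteins act on foreign RNA, Rsad2 (viperin), the GTPases Mx1 and Mx2, the chemokine Cxcl10 and Rtp4, at untreated means from 4.53 to 6.23. Their changes ran from -0.04 to 0.13, and 95% intervals lay between -0.26 and 0.29, that is 0.833-fold to 1.22-fold on the array's compressed scale. Their limma adjusted p began at 0.281, and at 0.158 with the block. Ifit1, with its 2 ISRE matches, was at 5.43, 5.52 and 5.42 in untreated and 5.50, 5.68 and 5.59 in tamoxifen arrays. These values overlap by a narrow margin, with a change of 0.13 ± 0.07. RMA gives no detection call, so a probe set this dim may have missed a small change. The remaining pair, Ifi35 (0.16 ± 0.08) and Oasl1 (-0.04 ± 0.06), an inhibitor of Irf7 translation, was not called.

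Calls were fewer among dim genes. Of the 14 members in the dimmest 40% of genes 1 was called (7.14%), against 1.81% of all genes there, and of the 23 brighter members 5 were (21.7%), against 11.8%. Windows with an ISRE match were found for 1 of 3 genes that rose, 2 of 2 that fell and 9 of 25 that were not called.

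**Figure D3:**
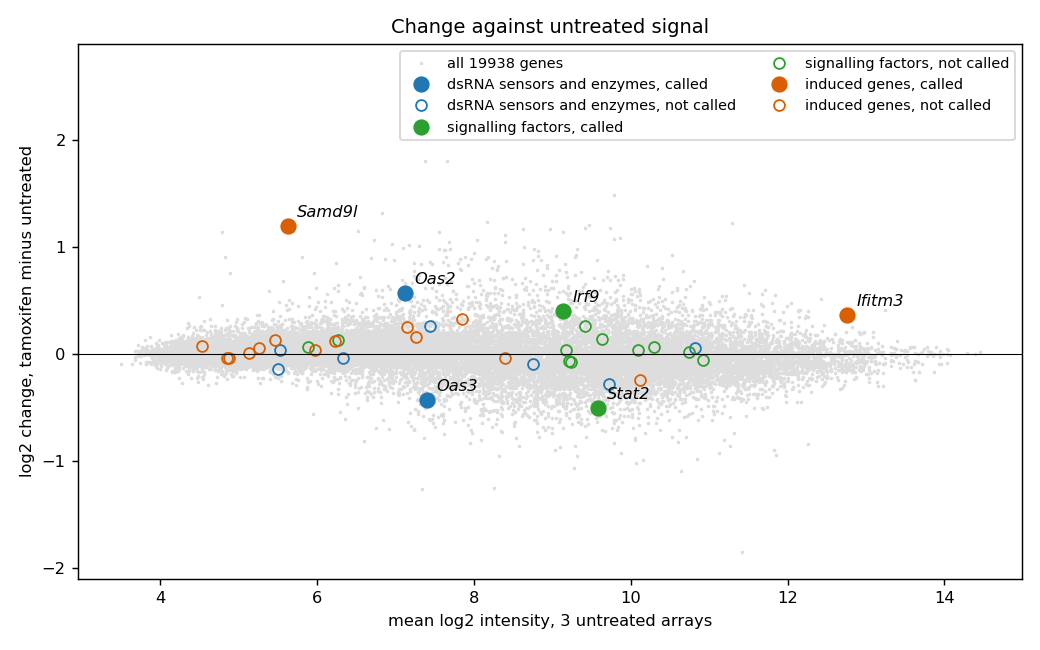
The x axis is the mean log2 intensity of the 3 untreated arrays and the y axis the log2 change, tamoxifen minus untreated; grey dots are all 19938 genes, filled circles called members and open circles members not called, coloured by role. Most induced genes lie at the dim left end near 0, with Samd9l at 1.20 above them.

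Other genes of the same pathway were taken from lists of sensing, signalling, induced and RNA-editing or RNA-decay genes. Of 162 listed 144 were measured; 13 rose, 1 fell and 130 were not called, or 9.03% higher and 0.694% lower. These shares stand beside 3.79% and 3.99% of all genes, and the lists too were chosen with earlier results of these data known. The median change was 0.05, against 0.01 over all genes. With the replicate block 32 rose and 6 fell, where 7.87% of all genes were called higher and 9.54% lower.

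Among 54 other sensing and signalling genes, 6 rose and 0 fell (limma, 11.1% called, against 7.78% of all genes). Before adjustment, 16 were higher and 1 lower under 0.05, or 31.5%, against 24.5% of all genes. Zbp1, a sensor of left-handed double-stranded nucleic acid that can start cell death, was at 7.43, 7.64 and 7.26 in untreated and 8.46, 8.54 and 7.90 in tamoxifen arrays. It rose 1.81-fold (0.86 ± 0.16, limma adjusted p = 0.0187), with the tamoxifen arrays all higher. Rnf125, an E3 ligase that marks RIG-I and MAVS for breakdown, was at 9.88, 9.97 and 10.04 and then 10.54, 10.51 and 10.41. This was the smallest p of the list, a rise of 0.52 ± 0.07 (limma adjusted p = 0.00587), called whichever array was left out and also over all probe sets (0.0362). Tlr2, a receptor for bacterial lipoproteins, rose by 0.47 ± 0.09, Nlrc5, an activator of MHC class I genes, by 0.36 ± 0.07, Irf2bp2, a partner of the repressor Irf2, by 0.35 ± 0.07, and the RNA helicase Ddx3x by 0.40 ± 0.09.

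The measured interferon genes of the other pathway lists were named outside the rule. Interferon genes that are not in these lists are not given here. Ifnb1, which encodes interferon beta, was at 4.96, 4.96 and 4.70 in untreated and 4.98, 4.94 and 4.86 in tamoxifen arrays. Its groups overlapped at this dim level, with a 95% interval of the change from -0.14 to 0.25. Ifna4 and Ifne had changes of 0.09 ± 0.06 and 0.03 ± 0.06, and Ifnz of 0.22 ± 0.09 (limma adjusted p = 0.431, 0.807 and 0.165; Ifnz 0.0467 with the block).

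Among 76 other induced genes, 7 rose and 1 fell (10.5% called, against 7.78% of all genes). Xaf1, a promoter of apoptosis, was at 7.55, 7.48 and 7.65 in untreated and 8.60, 8.07 and 7.99 in tamoxifen arrays, with replicate 1 the highest. It rose 1.58-fold (0.66 ± 0.14, limma adjusted p = 0.03). Znfx1, a helicase that binds double-stranded RNA at mitochondria, was at 8.85, 8.59 and 8.64 and then 9.23, 9.34 and 9.19, a rise of 1.47-fold. Znfx1 (0.56 ± 0.08, limma adjusted p = 0.00884) and the nuclear membrane protein Tor1aip1 (0.45 ± 0.07, 0.00855) were called whichever array was left out. Rnf213, a giant E3 ligase, rose by 0.61 ± 0.11, Zc3hav1, the zinc-finger protein that targets CpG-rich viral RNA, by 0.43 ± 0.10, and Parp10 by 0.38 ± 0.08. Nampt, an enzyme of NAD synthesis, fell by 0.39 ± 0.09 on the log2 scale. Of 14 RNA-editing and RNA-decay genes 0 were called by limma, while 2 were higher and 3 lower under 0.05 before adjustment (35.7%, against 24.5% of all genes). By p, the first of these were Ttc37 (-0.20 ± 0.06), Rnaseh2b (0.22 ± 0.07) and Strbp (-0.19 ± 0.07). With the block Ttc37 (limma adjusted p = 0.0492) and Rnaseh2b (0.0319) were called and Strbp (0.0535) was not.

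**Figure D4:**
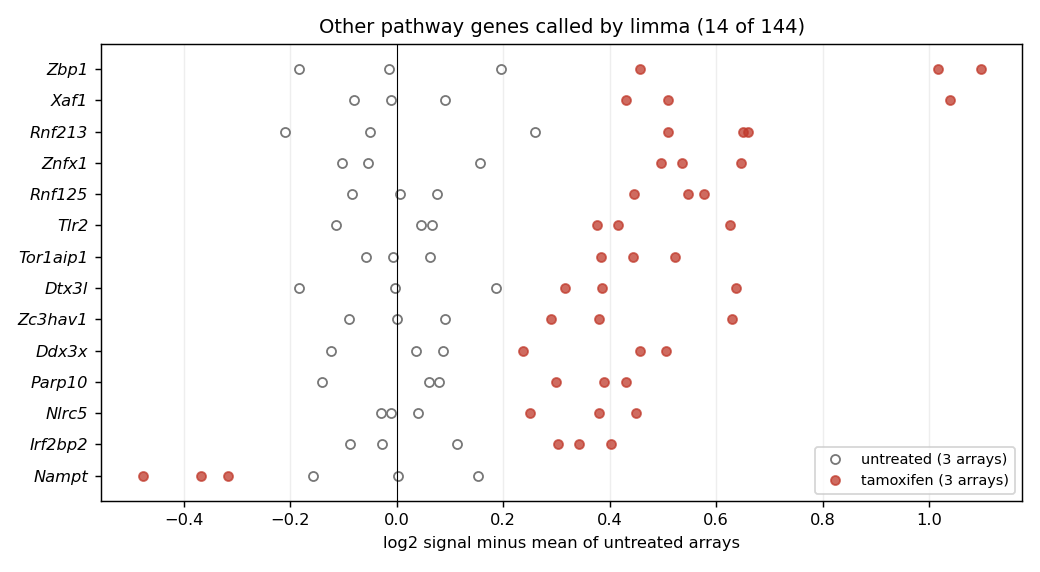
Each point is 1 array: its log2 signal minus the mean of the 3 untreated arrays (x axis) for the 14 called genes of the other pathway lists (y axis), open for untreated and filled for tamoxifen. For 13 genes the 3 tamoxifen points lie to the right of the untreated ones, with Zbp1 the farthest, and for Nampt to the left.

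Single arrays weighed on these calls as on those of the members. Without tamoxifen replicate 2 only 3 of the other pathway genes were called higher, and 5 without untreated replicate 2 or without untreated replicate 3, against 13 with all arrays; the shares of all genes called there were 1.78%, 2.59% and 4.55%. In the fit to all probe sets 3 stayed called, Rnf125, Tor1aip1 (0.0439) and Znfx1 (0.0483). An exact two-sided permutation test of any single gene cannot go below p = 0.1 with 3 against 3 arrays, which each called member reached. Whether the replicates came from separate cultures is not in the labels, so the p-values rest on a spread that may be technical.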

How the data were processed

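The deposited values are log2 intensities from the authors' RMA (background correction, quantile normalisation, probe set summary) run in Expression Console 1.2, according to the submitters' processing notes; the range of 3.18 to 14.6 shows the log2 scale. The annotation's genome build is not given in the sources used here. The table had 0 columns of other samples. Quantile normalisation hides a change shared by most transcripts.

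Of 35556 probe sets, 21789 had 1 gene symbol in the platform annotation, and 21698 of these matched a RefSeq gene of GRCm38.p6. The brightest probe set over 6 arrays stood for each of 19938 genes. limma 3.58.1 (R 4.3.3; lmFit, eBayes, no filter) compared the groups, Benjamini-Hochberg adjusted over all genes, called under 0.05. Errors are limma's SE, or SD. The code was tested on simulated data. Members, gene lists and their naming rule (all called members, then the smallest p to 5 a role, plus 7 fixed genes; up to 6 called genes a list and direction) were chosen with earlier results of these data known.

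Deviations of same-numbered arrays correlated at 0.356, 0.345 and 0.389, over 0.1 in each pair, so the numbers were taken to pair the samples. The main fit, with its counts, SEs and intervals, nevertheless leaves out this pairing. Values with the block stand beside the calls it changes for members and other named genes. For the remaining other pathway genes only the counts with the block are given. Promoter sequences are from RefSeq, GRCm38.p6. The number of arrays limits the precision.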

Additional observations from a re-analysis of the deposited data

How the results depend on the processing

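Counts are given for members higher and lower, other pathway genes higher and lower, and all genes, in that order; with the settings of the report they were 4, 2, 13, 1 and 1552. With the replicate number as a block they were 8, 4, 32, 6 and 3472, and among members the block changed no call beside those printed with the results. Over all probe sets of the table they were 0, 0, 3, 0 and 336, the last in probe sets, of which 273 stood for a gene, and at an adjusted p under 0.01 they were 0, 0, 3, 0 and 276. Array weights gave 22 and 2 other pathway genes and 2511 genes in all. Renewed quantile normalisation and cyclic loess each left 1 member lower. When 1 array was left out, the counts ran from 1 to 5, 0 to 2, 3 to 15, 0 to 2 and 355 to 1580, lowest without tamoxifen replicate 2 (tied for the lowest for other pathway genes lower). The cause of these moves was not tested, except that leaving out an array leaves fewer samples. A spacing of 3 bases in the ISRE found 5 members in place of 13.

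Changes near 0 turned sign in 6 cases. Ddx58 was at -0.01 with array weights, -0.08 without untreated replicate 1 and -0.02 without tamoxifen replicate 2. Eif2ak2 was at 0.03 without tamoxifen replicate 2, and Ifnar2 at -0.03 without untreated replicate 3 and without tamoxifen replicate 1. With 1 array left out the ranges were -0.08 to 0.16, -0.16 to 0.03 and -0.03 to 0.13. Over the 20 genes described in full, 279 of the alternative values kept direction and call, 22 lost the call and 9 gained it. The median change of all genes moved by less than 0.1 (log2) under each scaling. Genes in the dimmest 40% gave no value where these were removed. Low signal limits what the dim antiviral genes can show.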
